A study of Mus musculus with 71 samples.

Results

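Undisturbed mice killed in the middle of the light period, 6 h after light onset (zeitgeber time 6, ZT6), were compared with undisturbed mice killed at light onset (ZT0). The arrays were chosen by their labels alone, as the home-cage control arrays of these times, and make up 18 of the 71 arrays of the series, 9 at ZT6 and 9 at ZT0. Each array held whole-brain RNA pooled from 3 male mice, 12 to 13 weeks old, of 1 inbred strain, with 3 arrays each of AKR/J, C57BL/6J and DBA/2J at each time. The labels give no engineered allele and no agent for any group, and a whole-brain pool cannot say which region or cell a change came from. The other groups compared here were sleep-deprived mice of the same strains killed at ZT6 and at ZT0 after 6 h of enforced waking, and undisturbed mice killed at ZT18, in the middle of the dark period, and at ZT12, its beginning. The spread behind every p-value was estimated from all 71 arrays, which include mice sleep-deprived for 6 h and killed at ZT12 and ZT18. Expression was measured per probe set, a group of short probes for 1 transcript, on a log2 intensity scale on which 1 unit is a doubling.

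Mice are active mainly in the dark, so ZT0 closes the active period and ZT6 lies within the hours in which they sleep most. In the molecular clock, the activators Clock and Arntl (Bmal1) bind E-box sequences and switch on the repressors Per, Cry and Ciart, the nuclear receptors Nr1d1 and Nr1d2 (Rev-erb), and output factors such as Dbp, and the receptors in turn repress Arntl, Nfil3 and Cry1. Immediate early genes such as Arc and Fos are transcribed within minutes of neuronal activity and decay quickly, and transcripts of many chaperones and of Cirbp follow brain temperature, which is higher in waking.

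Of 45037 probe sets tested, 1805 differed between ZT6 and ZT0 at an adjusted p under 0.05, which is 4.01% of them. Of these, 1020 were higher at ZT6, 2.26% of those tested, and 785 were lower, 1.74%, and together they named 1318 genes. Most changes were small, with a median size of 0.21 log2 units. A change of at least 0.5 was seen in 37 of the called probe sets and a change of at least 1 in 8. The 9 ZT6 arrays did not overlap the 9 ZT0 arrays on 96 probe sets, 47 higher and 49 lower, which is 0.213% of those tested. On 1 probe set per gene, the brightest, 489 of 18193 named genes rose, 2.69%, and 373 fell, 2.05%, together 4.74%, with a median change of -0.00 over all named genes. In whole-brain RNA, fewer cells of a type and less RNA per cell cannot be told apart.

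Between any 2 of the 18 arrays the correlation was at least 0.986, and the root mean square difference between replicates ranged from 0.147 to 0.239 log2 units. On 45 spike-in control probe sets 6 arrays of the series stood apart, of which 3 were among the 18, namely AKR/J ZT6 replicate 3, AKR/J ZT0 replicate 3 and C57BL/6J ZT0 replicate 3. With a term for the 6 arrays 2428 probe sets were called, and without them 1553. The share of calls higher at ZT6 was 56.5%, and 51.6% without the 6 arrays. A weight of array quality was 0.36 to 0.39 for the 3 arrays and 0.37 for DBA/2J ZT0 replicate 3, against at least 0.73 for the rest of the 18. Replicate 3 at ZT0 thus had the lowest weight in each strain. Without DBA/2J ZT0 replicate 3, 51% of calls were higher. Transcripts of the pituitary, which may or may not stay with a dissected brain, also varied: growth hormone (Gh) read 5.20 in AKR/J ZT6 replicate 1, 11.8 to 13.2 in the other ZT6 arrays, and 11.1 to 13.4 in the ZT0 arrays. None of the 30 genes with the largest changes lost its call or turned its direction with the term, without the arrays that stood apart, or with pituitary hormone level as a covariate.

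The largest rise belonged to Dbp, a clock-driven transcription factor of the PAR bZip family and the gene that opens a group of clock genes among the leading changes. Its 9 ZT6 arrays read 8.77, 8.97 and 9.11 at the lowest, median and highest, against 7.74, 7.89 and 8.22 at ZT0, so that the lowest ZT6 array lay above the highest ZT0 array. Dbp was 2.05-fold higher at ZT6 (log2 change 1.03 ± 0.05, standard error, adjusted p = 9.38e-22). A second Dbp probe set, 1438211_s_at, changed by 1.04. Nr1d1, the heme-binding receptor Rev-erb alpha, read 7.53, 7.80 and 8.19 at ZT6 and 6.72, 6.95 and 7.17 at ZT0, again without overlap, and was 1.77-fold higher (0.83 ± 0.07, adjusted p = 7e-13). Its relative Nr1d2 rose by 0.35, with 10.92 to 11.10 at ZT6 and 10.54 to 10.79 at ZT0. Arntl, the activator that both receptors repress, fell by 0.34, with 7.91, 8.05 and 8.08 at ZT6 and 8.20, 8.31 and 8.68 at ZT0.

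The repressors of the clock split in direction. Ciart, also called Chrono, read 6.82, 6.94 and 7.18 at ZT6, against 5.92, 6.27 and 6.57 at ZT0, and was 1.57-fold higher (0.66 ± 0.06, adjusted p = 2.12e-12). Cry1 read 6.89, 7.06 and 7.34 at ZT6, against 7.45, 7.68 and 7.84 at ZT0, and was 1.52-fold lower (-0.61 ± 0.05, adjusted p = 7e-13). Per2 read 6.11, 6.37 and 6.62 at ZT6, against 6.79, 6.96 and 7.15 at ZT0, and was 1.5-fold lower (-0.59 ± 0.06, adjusted p = 1.17e-10). None of these 3 genes overlapped between the times on the probe sets read, which for Per2 was 1417602_at. Its other probe sets gave Per2 changes of -0.25 and -0.39, both past the threshold but with overlap between the times. Per3 had 6 probe sets that disagreed in size: it rose by 0.51 on 1458176_at (adjusted p = 1.24e-08), by 0.56 on 1441445_at and by 0.27 on 1442243_at, while the brightest, 1421087_at, changed by 0.19 and missed the threshold (adjusted p = 0.0561), passing it under 11 of 31 alternative settings. Per1 changed by -0.22 (adjusted p = 0.187), and by -0.30 (adjusted p = 0.0309) without AKR/J ZT6 replicate 3.

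Counted on the brightest probe set, 2.69% of all named genes rose and 2.05% fell. Counted in the same way, the list of 8 activators and nuclear receptors held 2 rises and 1 fall. The 10 repressors held 2 rises, Ciart and the replication-fork protein gene Tipin (0.34), and 2 falls. Among 14 clock output genes 3 rose and 2 fell. The output rises were Dbp, the deubiquitinase gene Usp2 (0.25) and Nampt (0.13), the enzyme of NAD salvage. Nampt passed on its brightest probe set only, under 29 of 31 alternative settings. Its other probe sets gave 0.0009 (adjusted p = 0.997) and 0.14 (adjusted p = 0.146). The output falls were Nfil3, a repressor that competes with Dbp for D-box sites, and the Krueppel-like factor gene Klf10 (-0.41). Nfil3 read 5.91, 6.07 and 6.43 at ZT6, against 6.49, 6.59 and 6.98 at ZT0, and fell 1.43-fold, with no overlap. The members that did not pass included Clock (-0.02), Npas2 (-0.09), Cry2 (-0.05), Bhlhe40 (-0.03), Tef (0.04) and Hlf (-0.01). None of 10 clock kinase and ubiquitin ligase genes passed, where 4.74% of all named genes did, and their changes ran between -0.05 and 0.08. These lists and their directions were known from earlier work on these arrays and are described, not tested.

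**Figure D1:**
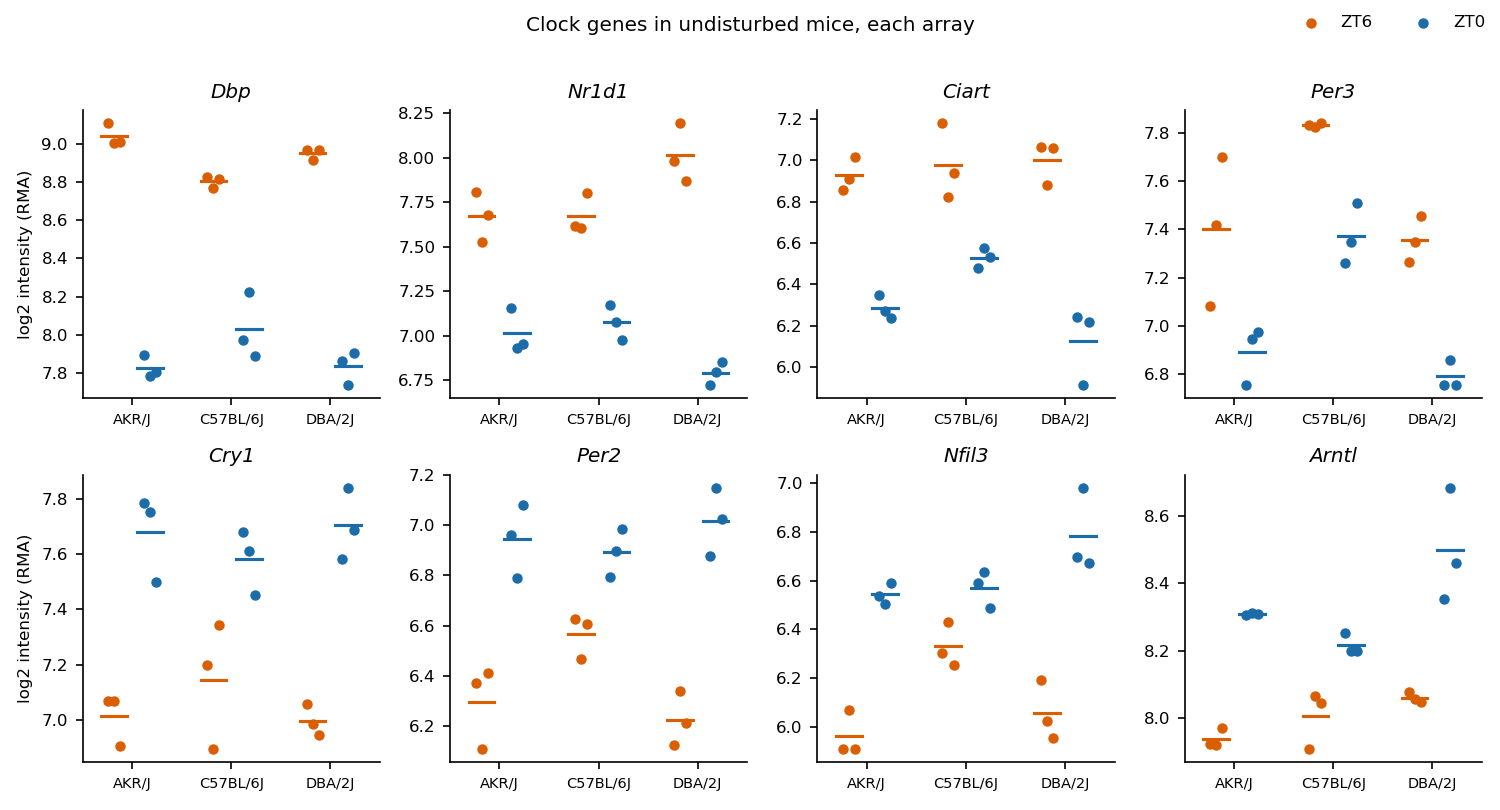
Log2 intensity of 8 clock genes in each array of undisturbed mice, by strain, with ZT6 (orange) left of ZT0 (blue); dots are arrays, each a pool of 3 mice, and bars are means of 3 arrays. Dbp, Nr1d1, Ciart and Per3 sit higher at ZT6 in each strain, and Cry1, Per2, Nfil3 and Arntl lower, Dbp for example at 8.77 to 9.11 against 7.74 to 8.22.

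The promoters of 4 of these genes are shown because they hold the letters by which clock and activity factors are known to act. RefSeq promoters (assembly GRCm38.p6, 250 bases before to 50 after each start) were found for 13 of the 15 genes with the largest rises and for 10 of the 15 with the largest falls. Capitals mark the E-box CACGTG, the D-box TTATGTAA (or TTACGTAA) and the cAMP response element (CRE) TGACGTCA, each searched on both strands.
Ciart, chr3:95882179-95882478, strand -: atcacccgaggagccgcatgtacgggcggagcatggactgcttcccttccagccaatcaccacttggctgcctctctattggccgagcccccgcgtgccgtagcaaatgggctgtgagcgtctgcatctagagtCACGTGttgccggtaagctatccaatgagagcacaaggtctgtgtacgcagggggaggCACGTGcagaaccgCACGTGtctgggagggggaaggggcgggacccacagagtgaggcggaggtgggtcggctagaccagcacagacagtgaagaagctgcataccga
Per3, chr4:151044616-151044915, strand -: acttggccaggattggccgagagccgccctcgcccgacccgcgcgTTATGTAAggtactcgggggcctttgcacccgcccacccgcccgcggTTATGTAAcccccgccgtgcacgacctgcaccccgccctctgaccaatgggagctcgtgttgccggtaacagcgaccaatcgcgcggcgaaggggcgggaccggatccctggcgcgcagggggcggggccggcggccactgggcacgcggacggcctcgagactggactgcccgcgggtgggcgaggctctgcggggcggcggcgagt
Cry1, chr10:85185005-85185304, strand -: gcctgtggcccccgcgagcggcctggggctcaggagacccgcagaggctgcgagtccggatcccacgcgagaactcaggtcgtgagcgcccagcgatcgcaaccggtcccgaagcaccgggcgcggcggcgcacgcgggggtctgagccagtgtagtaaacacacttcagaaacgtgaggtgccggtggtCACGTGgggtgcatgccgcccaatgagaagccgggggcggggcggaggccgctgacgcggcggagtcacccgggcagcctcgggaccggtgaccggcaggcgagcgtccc
Dusp1, chr17:26508423-26508722, strand -: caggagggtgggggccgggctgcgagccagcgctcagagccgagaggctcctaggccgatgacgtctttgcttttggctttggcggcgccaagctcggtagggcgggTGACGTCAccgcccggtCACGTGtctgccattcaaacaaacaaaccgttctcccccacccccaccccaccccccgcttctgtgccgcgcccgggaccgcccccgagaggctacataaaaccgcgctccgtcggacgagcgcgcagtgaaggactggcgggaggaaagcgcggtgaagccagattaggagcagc
Ciart held 3 E-boxes, Per3 held 2 D-boxes, Cry1 held 1 E-box, and Dusp1, the activity-induced phosphatase gene described next, held 1 E-box and 1 CRE, with no overlap between the marked motifs. Of 32851 mouse promoters of the same length, 7.15% held the E-box, 1.06% a D-box and 1.79% the CRE. Among the 30 genes with the largest changes, Egr2 and Tmeff2 also held 1 E-box each. In the 3 clock lists, 27 of 32 genes had a promoter in the table, and 9 of their 33 promoters held an E-box, 27.3%. They belonged to Ciart, which rose, to Cry1, which fell, and to Avp, Klf15, Prok2, Bhlhe41, Per1 and Tef, which did not pass. In the same lists 7 promoters, 21.2%, held AGGTCA, the half-site known to bind Nr1d1 and its relatives, against 16.3% of all promoters. Of their genes, Nr1d2 and, on its brightest probe set only, Nampt rose, Arntl and Nfil3 fell, and Clock, Per1 and Prokr2 did not pass. A match is a run of letters and was not tested as a binding site.

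The largest falls were those of immediate early genes. Arc, whose protein regulates glutamate receptors at synapses, read 6.58, 6.97 and 7.34 at ZT6, against 8.18, 8.73 and 9.22 at ZT0, and was 3.33-fold lower (-1.73 ± 0.11, adjusted p = 1.39e-18). Fos, a subunit of the AP-1 transcription factor, read 7.28, 7.54 and 8.31 at ZT6, against 8.83, 9.17 and 9.32 at ZT0, and was 2.79-fold lower (-1.48 ± 0.09, adjusted p = 5.57e-18). The nuclear receptor gene Nr4a1 read 8.09, 8.62 and 9.04 at ZT6, against 9.38, 9.66 and 9.87 at ZT0, and was 2.22-fold lower (-1.15 ± 0.08, adjusted p = 2.91e-17). No ZT6 array of these genes reached the lowest ZT0 array. The same held for the zinc-finger factor genes Egr2 (-1.06 ± 0.11) and Egr1 (-0.78 ± 0.07) and for Dusp1 (-0.85 ± 0.06), a phosphatase of MAP kinases that read 8.49, 8.75 and 9.11 at ZT6 and 9.52, 9.56 and 9.69 at ZT0. The AP-1 gene Fosl2 fell by 0.61 without overlap, and Npas4, a neuronal transcription factor, by 0.72, with 5.0 to 6.01 at ZT6 and 5.93 to 6.70 at ZT0.

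Homer1, which encodes a scaffold of the postsynaptic density and gives a short activity-induced form, fell on some of its probe sets more than on others. On 1436387_at it read 7.56, 8.0 and 8.34 at ZT6, against 8.66, 8.93 and 9.47 at ZT0, and was 2.09-fold lower (-1.06 ± 0.06, adjusted p = 1.43e-18). The brightest of its 6 probe sets, 1437363_at, changed by -0.19 (adjusted p = 0.000507) and 1425671_at by -0.33 (adjusted p = 0.00715), and the other 3 did not pass. Of 50 immediate early and activity-regulated genes measured, 28 fell, 0 rose and 22 did not pass, against 2.05% and 2.69% of all named genes. The median change of the list was -0.20, and 43 of the 50 lay below 0. The 9 and 9 arrays did not overlap for 9 of the 50 genes, against 0.291% of all named genes. The count of falls was 25 without the 6 arrays that stood apart, and 20 when the spread was estimated from the 18 arrays alone.

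**Figure D2:**
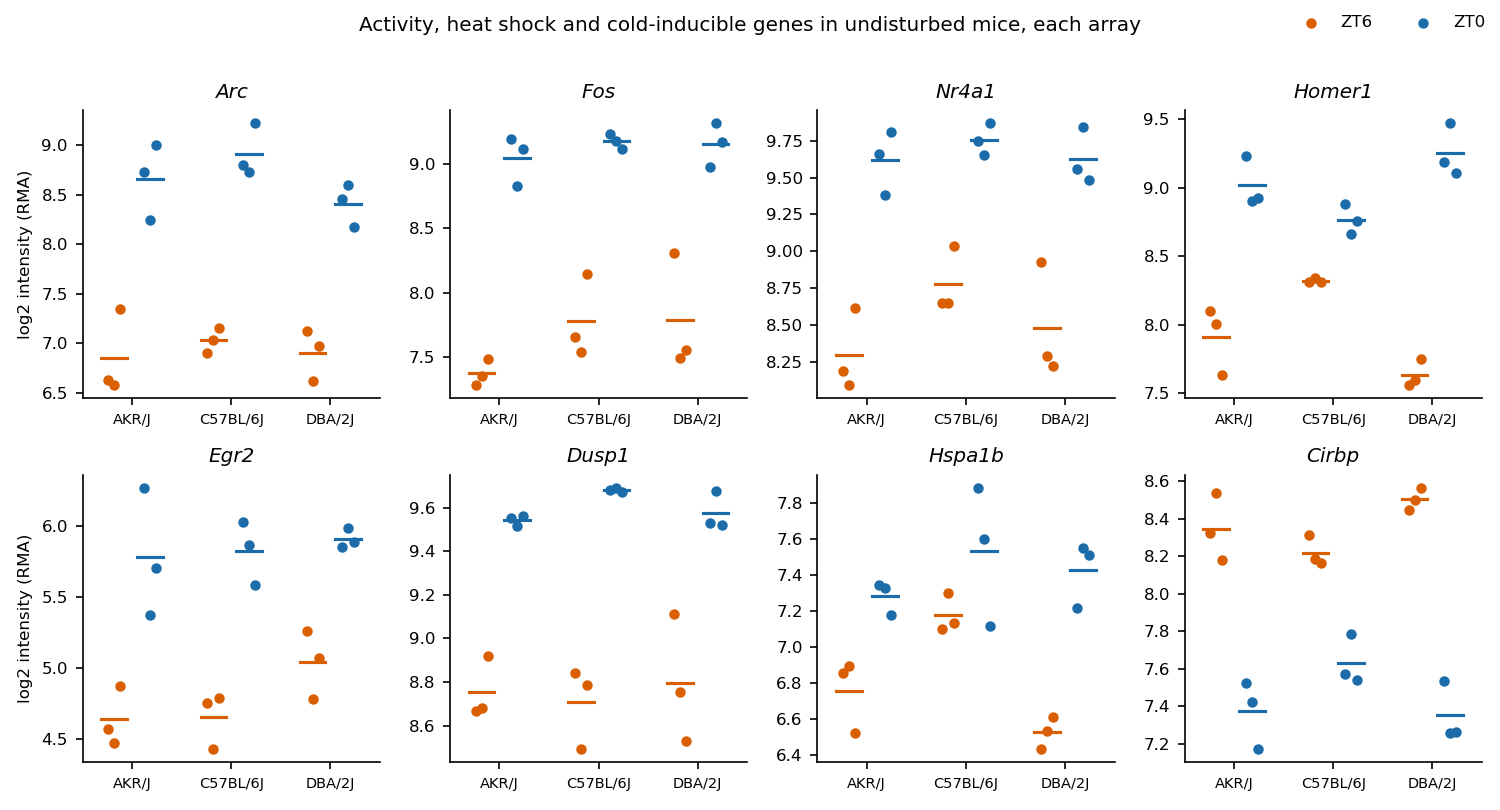
Log2 intensity of 8 genes in each array of undisturbed mice, by strain, with ZT6 (orange) left of ZT0 (blue); dots are arrays and bars are means of 3 arrays. Arc, Fos, Nr4a1, Homer1, Egr2 and Dusp1 are lower at ZT6 in each strain without overlap, Hspa1b overlaps between the times in C57BL/6J, and Cirbp is higher at ZT6, 8.16 to 8.56 against 7.17 to 7.78.

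Cirbp, which encodes a cold-inducible RNA-binding protein, showed the second largest rise. It read 8.16, 8.32 and 8.56 at ZT6, against 7.17, 7.52 and 7.78 at ZT0, with no overlap, and was 1.87-fold higher (0.90 ± 0.07, adjusted p = 3.84e-15). Of 24 cold-inducible and temperature-sensitive RNA-processing genes 3 rose and 6 fell, against 2.69% and 2.05% of all named genes. The list had a median of -0.04, and with only the 18 arrays 2 members rose and 4 fell. Besides Cirbp the rises included Srsf5 (0.17), a splicing factor gene. The falls included the splicing regulator gene Tra2a (-0.44), at 8.18 to 8.48 against 8.70 to 8.93, and Clk1 (-0.31), a kinase of splicing factors, at 10.05 to 10.48 against 10.55 to 10.73, both without overlap. Srsf6 (-0.26) and Ccnl2 (-0.16) also fell.

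Of 35 cytosolic heat shock genes measured, 12 fell, 0 rose and 23 did not pass, against 2.05% lower and 2.69% higher of all named genes. The list had a median of -0.14, with 29 members below 0 and the highest at 0.12. Hspa1b, an inducible Hsp70, fell by 0.59 on 1427127_x_at (adjusted p = 0.00153), where it read 6.43, 6.85 and 7.30 at ZT6 and 7.11, 7.34 and 7.88 at ZT0, and its other probe sets gave -0.68 and -0.60. Probe sets of the type _x_at or _s_at may also bind transcripts of close relatives, here the near-identical Hspa1a. The heat shock element core GAANNTTC was in 16 of 43 promoters of the list (31 of 35 genes matched), 37.2%, against 7.86% of all promoters. The small heat shock protein gene Cryab fell by 0.32, and the cochaperone genes Chordc1, Dnajb5 and Ahsa2 by 0.33, 0.26 and 0.25. Hspa8, the constitutive Hsp70, fell by 0.16 on its brightest probe set and by 0.70 on the dim probe set 1431182_at. Of 36 genes of chaperones and stress of the endoplasmic reticulum 8 fell and 0 rose, with a median of -0.04, against the same shares of all named genes. The count was 4 with only the 18 arrays and 6 without the arrays that stood apart. The falls were led by Hspa5 (-0.37, adjusted p = 5.21e-09), the chaperone BiP, and by the secreted factor Manf (-0.32, adjusted p = 1.94e-06), which read 9.42, 9.55 and 9.68 at ZT6 and 9.72, 9.88 and 10.07 at ZT0. The transcription factor gene Xbp1 (-0.29), Creld2 (-0.28) and the calcium-binding chaperone gene Calr (-0.22) fell as well.

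Several of the largest changes came from 1 probe set of a gene whose other probe sets gave another value. Rprd2, linked to RNA polymerase II, rose by 0.71 on 1434817_s_at, with 4.71, 5.11 and 5.62 at ZT6 and 4.29, 4.43 and 4.59 at ZT0, but none of its other 7 probe sets passed, with changes between -0.09 and -0.02. Btg1, an antiproliferative gene, rose by 0.55 on 1442018_at and fell by 0.20 and 0.25 on its 2 brighter probe sets. The adhesion molecule gene Cntn2 fell by 0.55 on 1456962_at, the dimmest of 4 probe sets, and the other 3 did not pass. The receptor genes Sorcs1 (0.53) and Tmeff2 (0.44) likewise passed on 1 of 3 probe sets each. Tnik, a kinase of the postsynaptic density, rose by 0.53 on 1430579_at and by 0.38 on 1458403_at, while its other 2 probe sets gave -0.07 and -0.03.

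Sin3b, a scaffold of histone deacetylase complexes, rose on 3 of 5 probe sets by 0.33 to 0.46, and the other 2 gave -0.14 and -0.05. Krt12, a keratin known from the cornea, rose by 0.42 and 0.43 on its 2 probe sets, and its lowest levels, from 4.99 upward, were those of DBA/2J at either time. Scd1, the stearoyl-CoA desaturase, rose by 0.42 on 1415965_at, read 6.72, 7.32 and 8.17 at ZT6 and 6.55, 6.88 and 7.35 at ZT0, and changed by 0.10 (adjusted p = 0.347) on its brighter probe set. Zfand4 (0.43) and 4930570G19Rik (0.53) rose on their only probe sets, with overlap between the times. The zinc-finger gene Zmym1 fell by 0.69 on its only probe set, at 7.42, 7.63 and 8.01 against 7.82, 8.43 and 8.89. Of the called probe sets, 218 had no gene name here, 107 higher and 111 lower, among them 1442570_at at -0.97 and 1453976_at at 0.64.

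Lists of metabolism and protein synthesis differed in their share of calls, where 4.74% of all named genes were called. Of 32 cholesterol and fatty acid synthesis genes 4 rose, 12.5%, and 0 fell, with a median of 0.06. They were Lss (0.36), the lanosterol synthase, the synthesis enzymes Hmgcs1 (0.13) and Nsdhl (0.13), and Insig1 (0.20), a regulator of SREBP. This count fell to 1 with only the 18 arrays, to 1 without DBA/2J ZT0 replicate 3 and to 2 without any 1 of C57BL/6J ZT0 replicate 1, C57BL/6J ZT6 replicate 1 and C57BL/6J ZT6 replicate 3. Of 37 translation factor genes 3 rose, 8.11%, namely Eif5 (0.20), Eif2b3 (0.20) and Eif4b (0.09), and of 19 aminoacyl-tRNA synthetase genes only Aars (0.13) did. The list of 39 proteasome genes held 2 rises, Psma7 (0.11) and Psmd1 (0.09). The 45 ribosomal protein genes held 1, Rps4l (0.32). With only the 18 arrays 1 translation factor gene and 0 synthetase and proteasome genes were called, and without the arrays that stood apart the last 2 counts were 0 as well. None of 81 mitochondrial respiratory chain genes passed, and their changes lay between -0.15 and 0.10.

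Of 30 genes of glucose transport, glycolysis and glycogen, the lactate transporter gene Slc16a1 (0.18) rose and Ppp1r3c (-0.17), which targets a phosphatase to glycogen, fell. Among 26 glucocorticoid-responsive genes 6 fell, 23.1% against 2.05% of all named genes, and 0 rose, with a median of -0.13 (4 fell with only the 18 arrays), and Dusp1 of this list stands in the immediate early list too. Tsc22d3 (-0.17), a glucocorticoid-induced leucine zipper gene, and Bcl6 (-0.20) were among the falls. In thyroid hormone action the deiodinase gene Dio2 (-0.34), which activates the hormone, fell with 8.01, 8.24 and 8.45 at ZT6 and 8.41, 8.60 and 8.74 at ZT0, and Thrsp rose by 0.14. For the lists of this paragraph the background is 4.74% of named genes called, and shares near it are no result about the list. Among receptor and transmitter lists, 0 of 22 glutamate receptor genes, 0 of 33 presynaptic genes and 0 of 8 adenosine genes were called. Of 16 GABA receptor genes Gabrd (0.14) rose, of 69 potassium channel genes Kcns2 (0.16) rose, and of 36 neuromodulator genes the peptide genes Nmb (-0.23) and Vip (-0.11) fell. With only the 18 arrays none of the GABA receptor, potassium channel and neuromodulator calls was made, and without the arrays that stood apart these lists held 0, 1 and 1. None of 20 metallothionein and oxidative stress genes passed.

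Marker lists of cell types gave small numbers of calls. Of 15 oligodendrocyte markers 4 rose and 0 fell, 26.7% against 4.74% of all named genes, with a median of 0.01 and 7 members below 0. Opalin, a membrane protein gene of myelinating cells, read 8.76, 9.05 and 9.10 at ZT6, against 8.28, 8.44 and 9.06 at ZT0, and rose by 0.39 (adjusted p = 3.49e-06). Its 9 ZT0 arrays were lowest in AKR/J and DBA/2J, and the change was 0.62 in DBA/2J, 0.47 in AKR/J and 0.07 in C57BL/6J (F test between strains, adjusted p = 0.252). Aspa (0.26), Mag (0.20) and Cnp (0.13) also rose. Gpr17, a receptor gene of committed precursors, fell by 0.36, with 7.81, 7.96 and 8.12 at ZT6 and 8.20, 8.32 and 8.43 at ZT0, and was the only 1 of 8 precursor markers to pass. Of 14 vessel genes of the blood-brain barrier 2 rose, the transferrin receptor gene Tfrc (0.32), at 9.63, 9.83 and 9.89 against 9.18, 9.48 and 9.87, and the amino acid transporter gene Slc7a5 (0.20).

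Of 11 neuron markers only Nefm (-0.12) passed, and of 11 astrocyte markers only Gjb6 (-0.18), and neither count was above 0 with only the 18 arrays. The mean level of the neuron markers ran from 11.26 to 11.38 at ZT6 and from 11.20 to 11.40 at ZT0. No marker of microglia, choroid plexus, blood, meninges, pituitary, striatum or hypothalamus passed. Of 9 cerebellum markers the cerebellin genes Cbln1 (0.21) and Cbln3 (0.28) rose, and of 7 olfactory bulb markers Eomes (-0.25) fell, while the olfactory bulb list had a median of -0.14 with all 7 members below 0. Its mean level was 6.27, 6.42 and 6.60 at ZT6 and 6.44, 6.57 and 6.63 at ZT0, and whether the amount of bulb tissue in the pools had a part in any result was not tested. For these lists the background is again 2.69% of named genes higher and 2.05% lower, and shares near it are no result about the list.

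**Figure D3:**
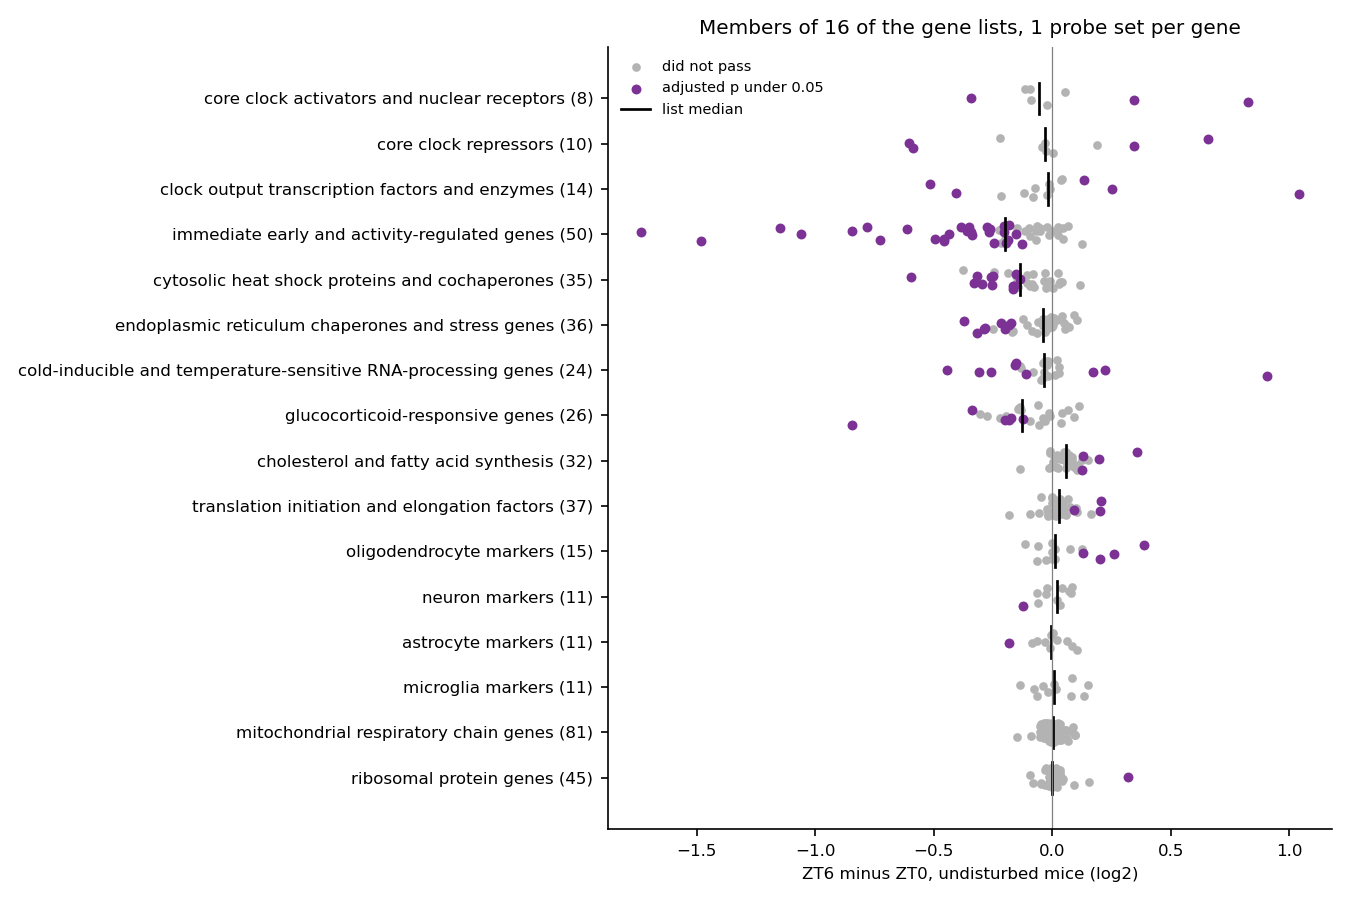
Log2 change at ZT6 minus ZT0 for members of 16 gene lists, 1 probe set per gene with the number measured in brackets; purple dots passed an adjusted p under 0.05, grey dots did not, and black lines are list medians. Immediate early genes reach to -1.73 with a median of -0.20, Cirbp stands at 0.90 and Dbp at 1.04 on the brightest probe set, and mitochondrial genes lie between -0.15 and 0.10.

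Most called changes ran the same way in each strain. Of the 1805 called probe sets, 1704 had the same sign in all 3 strains, 975 higher and 729 lower. The calls were made on the mean of the same 3 changes, so this agreement is raised by the choice. The share over all probe sets was not counted. Tested within a strain, 227 probe sets passed in AKR/J (0.504%), 164 in C57BL/6J (0.364%) and 559 in DBA/2J (1.24%). A call in each strain with the same sign was made for 29 probe sets, 12 higher and 17 lower. The median size of the 1805 changes was 0.20 in AKR/J, 0.17 in C57BL/6J and 0.23 in DBA/2J, and the smallest of the 3 changes was that of C57BL/6J for 923 of them. The counts per strain depended on single arrays, with 138 in AKR/J without ZT6 replicate 2, 70 in C57BL/6J without ZT6 replicate 3, and 300 in DBA/2J without ZT6 replicate 2. Dbp rose by 1.21 in AKR/J, by 0.78 in C57BL/6J and by 1.12 in DBA/2J, and in the same order Arc changed by -1.81, -1.89 and -1.51. A difference between strains was not detected for Dbp (adjusted p = 0.414) or Arc (adjusted p = 0.908).

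An F test of the change against strain passed for 9 probe sets, 0.02% of those tested, naming 7 genes. Homer1 on 1436387_at fell most in DBA/2J, with 7.56, 7.60 and 7.75 at ZT6 against 9.19, 9.47 and 9.11 at ZT0. In AKR/J it read 8.10, 8.0 and 7.63 at ZT6 against 9.23, 8.91 and 8.93 at ZT0. In C57BL/6J the times lay closer, with 8.31, 8.34 and 8.31 at ZT6 against 8.88, 8.66 and 8.76 at ZT0. The changes were -1.62, -1.11 and -0.45 in these strains (adjusted p of the F test = 0.00023). Trim9, a neuronal ubiquitin ligase gene, fell by 0.58 in AKR/J and 0.63 in DBA/2J and changed by -0.11 in C57BL/6J, where the times overlapped (adjusted p = 0.00023). Sin3b had the same division, with 0.56 in AKR/J, 0.79 in DBA/2J and 0.02 in C57BL/6J (adjusted p = 0.00228), as did Hspa5 on 1427464_s_at with -0.57, -0.51 and 0.02 (adjusted p = 0.0231). On its brighter probe set Hspa5 missed the threshold of this test (adjusted p = 0.125).

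The other 3 genes that differed between strains did not pass over the strains together. AU022252 changed by -0.59 in DBA/2J, where its level was also lowest, at 5.05 to 5.27 at ZT6 against 5.67 to 5.88 at ZT0, and by 0.08 and 0.06 in AKR/J and C57BL/6J. Trim13, a ubiquitin ligase gene, changed by -0.34 in C57BL/6J, -0.02 in AKR/J and 0.13 in DBA/2J. Sdhaf4, an assembly factor of succinate dehydrogenase, changed by 0.31 in DBA/2J, 0.10 in AKR/J and -0.18 in C57BL/6J. The calls of Trim13, Hspa5 and Sdhaf4 were lost without any 1 of several arrays, and passed under 21, 22 and 16 of 31 alternatives. With the spread estimated from the 18 arrays alone, limma called 0 probe sets in this test, with 2375 at an unadjusted p under 0.05, and Homer1 had an adjusted p of 0.202.

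In mice kept awake for 6 h before each time, fewer genes were called between ZT6 and ZT0, by a margin that depended on the setting. There 23 probe sets passed, 0.0511% of those tested, 12 higher at ZT6 (0.0266%) and 11 lower (0.0244%). The means of these 9 and 9 arrays shared no array with the undisturbed means, but the estimate of the spread was the same. With array weights the counts were 565 in sleep-deprived and 2397 in undisturbed mice. Of the 23 probe sets, 14 were also called with the same sign in undisturbed mice, which is 60.9% of the sleep-deprived calls and 0.776% of the undisturbed calls. The 14 were led by clock genes, with Cry1 (-0.61 in undisturbed and -0.58 in sleep-deprived mice), Dbp (1.03 and 0.66), Nr1d1 (0.83 and 0.57), Per3 on 1458176_at (0.51 and 0.46), Nfil3 (-0.51 and -0.38), Arntl (-0.34 and -0.29), Nr1d2 (0.35 and 0.30) and Ciart (0.66 and 0.30). The others, of which Dgat2, Plat and H2aw were chosen after their values were seen, were Tra2a (-0.44 and -0.21), Tnik on 1458403_at (0.38 and 0.32), the lipid synthesis gene Dgat2 (0.27 and 0.18), the plasminogen activator gene Plat (-0.23 and -0.21), the histone gene H2aw (-0.27 and -0.19), and the second probe set of Dbp (1.04 and 0.78).

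The difference between these changes was itself tested, and 201 probe sets passed, 0.446% of those tested, 112 higher in undisturbed mice (0.249%) and 89 lower (0.198%). Homer1 stood near 10.1 in sleep-deprived mice at either time (10.07 ± 0.13 at ZT6 and 10.13 ± 0.15 at ZT0, SD, n = 9 each), where the highest undisturbed array of these times read 9.47, and its change differed by -1.0 (adjusted p = 1.48e-10). The change of Arc was -1.73 in undisturbed and -0.32 in sleep-deprived mice, a difference of -1.41 (adjusted p = 9.49e-09). Cirbp rose by 0.90 in undisturbed mice and changed by 0.13 in sleep-deprived mice (difference 0.78, adjusted p = 6.03e-07). Fos, Nr4a1, Dusp1, Egr1, Egr2 and Fosl2 also passed, with differences between -1.06 and -0.61. None of 50 immediate early genes passed between the sleep-deprived groups, where 0.077% of named genes did, and the difference was called for 14 of them, against 0.506% of named genes. Of the clock genes, Ciart (0.36) and Tipin (0.33, adjusted p = 0.00872) differed in their change on their only probe sets. Dbp, Per2 and Usp2 did so on 1 of theirs. Usp2 passed on 1417168_a_at (0.30, adjusted p = 0.0118) and not on the brighter 1417169_at (0.07, adjusted p = 0.722). Dbp passed on 1418174_at (0.38, adjusted p = 0.00617) and not on the brighter 1438211_s_at (0.26, adjusted p = 0.12). Per2 passed on 1417602_at (-0.39, adjusted p = 0.0136) and not on its other probe sets (-0.14, adjusted p = 0.608, and -0.29, adjusted p = 0.113). In this test Cry1 (-0.03, adjusted p = 0.935), Per3 (0.05, adjusted p = 0.889) and Nr1d1 (0.25, adjusted p = 0.31) did not pass. The count of 201 was 1307 with array weights, 382 among probe sets above the median level, 120 without C57BL/6J ZT0 replicate 3, 348 without AKR/J ZT6 replicate 3, and 44 without the 6 arrays that stood apart, 3 of which were sleep-deprived.

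**Figure D4:**
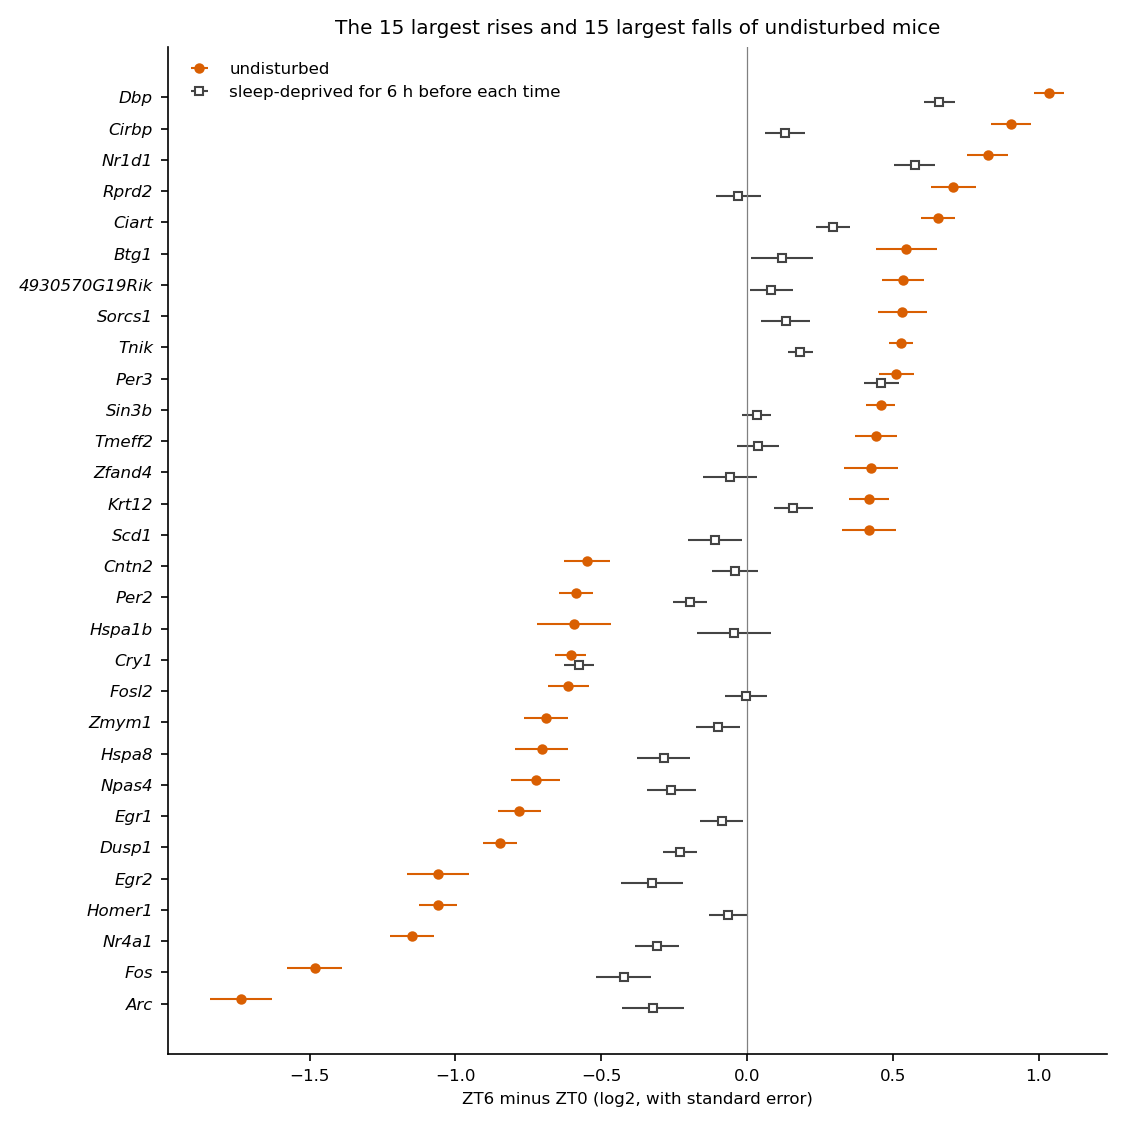
Log2 change at ZT6 minus ZT0, with its standard error, for the 15 largest rises and 15 largest falls of undisturbed mice; circles are undisturbed mice (above) and squares mice sleep-deprived for 6 h before each time (below). Cry1 and Per3 lie close together in both (-0.61 and -0.58, 0.51 and 0.46), whereas Homer1, Arc and Cirbp stand apart.

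The corresponding 6 h of the dark period, ZT18 minus ZT12 in undisturbed mice, gave 3273 called probe sets, 7.27% of those tested, 1808 higher (4.01%) and 1465 lower (3.25%). Its means shared no array with those of the light comparison, but the estimate of the spread was the same. Of the 1805 light calls, 1097 were also called there, which is 60.8% of the light calls and 33.5% of the dark calls, and 1096 of these had the opposite sign. The exception, named after its value was seen, was the muscle protein gene Cmya5, at -0.19 in the light and -0.15 in the dark. The light change minus the dark change passed for 5431 probe sets, 12.1% of those tested, 2764 higher (6.14%) and 2667 lower (5.92%). Homer1 changed by -1.06 in the light and 2.19 in the dark, Fos by -1.48 and 1.26, Arc by -1.73 and 1.33, Dbp by 1.03 and -0.87, and Cirbp by 0.90 and -0.90. Hspa5 on its brightest probe set changed by -0.37 and 0.83, and Spred1, an inhibitor of the MAP kinase pathway, by -0.36 and 0.47.

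Over the 4 times the genes did not share 1 time course. Dbp stood at 7.90 ± 0.14, 8.93 ± 0.11, 9.53 ± 0.11 and 8.66 ± 0.06 at ZT0, ZT6, ZT12 and ZT18 (SD, n = 9 each), with the highest mean at ZT12. Nr1d1 stood at 6.96 ± 0.16, 7.79 ± 0.21, 7.75 ± 0.15 and 7.12 ± 0.19, about level between ZT6 and ZT12, and Cirbp had the same shape at 7.45 ± 0.19, 8.36 ± 0.16, 8.30 ± 0.13 and 7.40 ± 0.15. Cry1 was lowest at ZT6, with 7.66 ± 0.13, 7.05 ± 0.15, 7.54 ± 0.12 and 7.83 ± 0.13. Per2 was lowest there as well, with 6.95 ± 0.12, 6.36 ± 0.19, 7.37 ± 0.21 and 7.70 ± 0.21. Arc was low at ZT6 and ZT12 and high at ZT18 and ZT0, with 8.66 ± 0.34, 6.93 ± 0.27, 7.20 ± 0.18 and 8.52 ± 0.28. Homer1 had its lowest mean at ZT12, with 9.02 ± 0.26, 7.96 ± 0.33, 7.41 ± 0.33 and 9.60 ± 0.18.

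**Figure D5:**
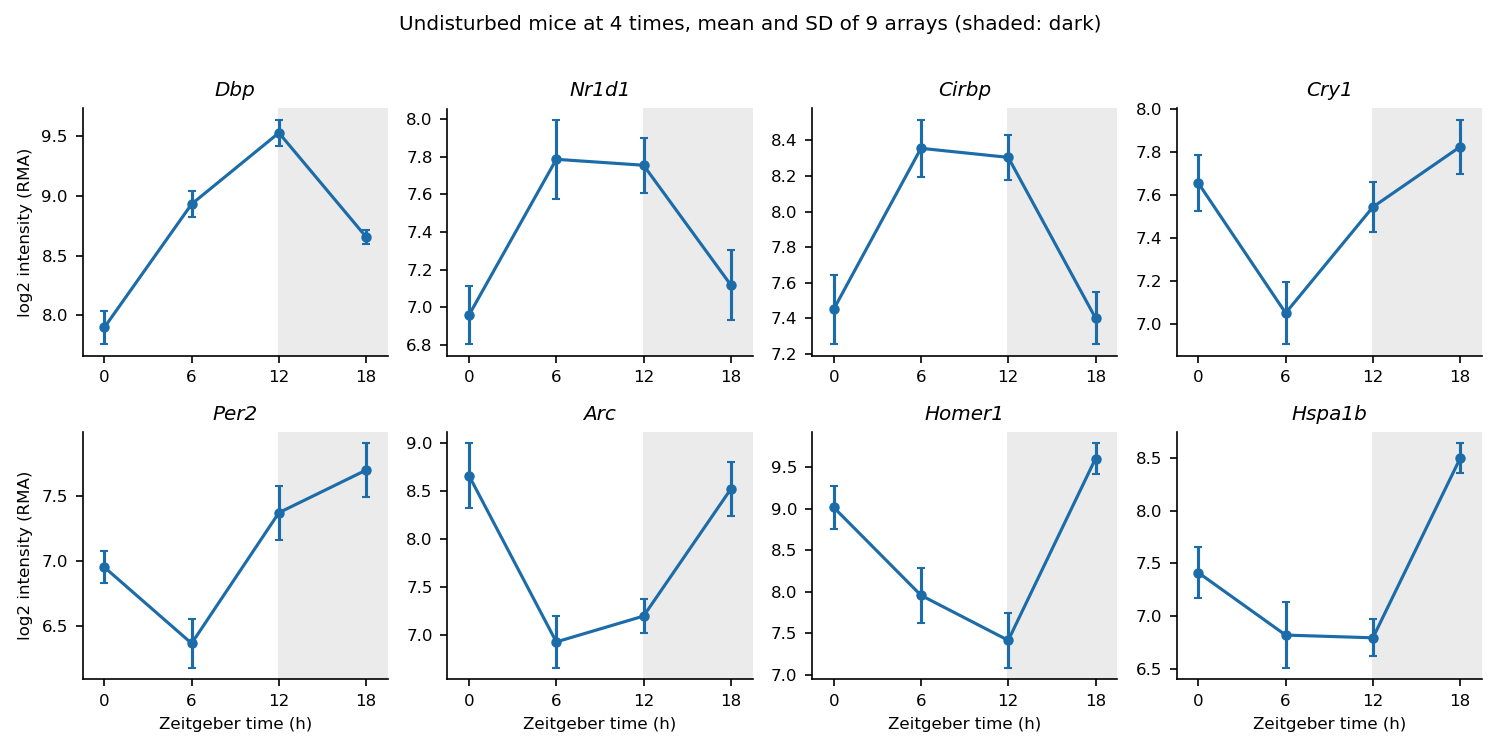
Mean log2 intensity of 8 genes in undisturbed mice at ZT0, ZT6, ZT12 and ZT18 (hours after light onset), with bars of 1 SD over 9 arrays of 3 strains and the dark period shaded. Dbp climbs to 9.53 at ZT12, Cry1 and Per2 are lowest at ZT6, and Arc and Homer1 are high at ZT18 and ZT0.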

How the data were processed

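The authors deposited log2 expression values for each probe set. The submitters' processing notes name RMA, whose version is not given in the sources used here. The deposited values of the 18 arrays run from 2.73 to 14.35, with array medians of 5.67 to 5.71. The number of arrays limits the precision, since no counts underlie the values. Replicate arrays are pools of 3 mice each, so p-values measure the spread between pools.

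Of 45101 probe sets 64 controls were left out. Names came from the platform annotation, updated through Entrez IDs: 1 symbol was found for 34945 probe sets, several for 932, and none here for 9160. One mean per group (24 groups, 71 arrays, 47 residual degrees of freedom) was fitted by lmFit and eBayes of limma 3.58.1, under R 4.3.3. The comparison is the mean of the 3 within-strain differences. All p-values are two-sided, adjusted by Benjamini and Hochberg's method over 45037 probe sets, and a call needs an adjusted p under 0.05. The same fit gave the strain F test and the differences from sleep-deprived mice and from the early dark. The script was tested on simulated data.

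Lists, described on the probe set of highest mean, held 861 genes, 818 of them measured. The genes named are the 15 largest rises and falls with 1 symbol, the clock lists, up to 6 members of each other list with the smallest p, and the 10 smallest p of each difference test. The comparison and lists were chosen with earlier results of these data known. Promoters are RefSeq's, matched by symbol. Alternatives covered normalization, filters, array weights, the replicate number as a block, other sets of arrays, and each array left out.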

Additional observations from a re-analysis of the deposited data

Results flagged for a closer look

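The change differed between strains in an F test for 7 genes, with adjusted p-values of 0.00023 for Homer1, 0.00023 for Trim9, 0.000851 for AU022252, 0.00228 for Sin3b, 0.0231 for Trim13, 0.0231 for Hspa5 and 0.0338 for Sdhaf4.

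The ZT6 minus ZT0 change differed between undisturbed and sleep-deprived mice, by a test of the difference, for 19 of the 30 genes with the largest changes, 8 rises and 11 falls, against 0.446% of all probe sets. These genes were chosen for a large change in undisturbed mice, which is 1 side of the difference, so the share is raised by the choice. On the probe sets chosen, the falls were deeper in undisturbed mice by -1.41 log2 units for Arc, -1.06 for Fos, -1.0 for Homer1, -0.84 for Nr4a1, -0.74 for Egr2, -0.69 for Egr1, -0.62 for Dusp1, -0.61 for Fosl2, -0.59 for Zmym1, -0.51 for Cntn2 and -0.39 for Per2. The rises were higher in undisturbed mice by 0.78 for Cirbp, 0.74 for Rprd2, 0.53 for Scd1, 0.45 for 4930570G19Rik, 0.43 for Sin3b, 0.38 for Dbp, 0.36 for Ciart and 0.34 for Tnik. The second Dbp probe set (0.26, adjusted p = 0.12) and a second Tnik probe set (0.07, adjusted p = 0.854) did not pass. Trim9 (-0.38) and Zfp319 (-0.42), named for their small p in this test, differed too. Under alternative settings the Trim9 difference passed in 28 of 29 and was -0.17 at its smallest. The Zfp319 difference passed in 27 of 28 and was -0.15 at its smallest. The Rprd2 difference passed in 27 of 28 and was 0.03 at its smallest.

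Single arrays lay far from the others of their time in 5 cases of 62 tested, where chance gives about 1 in 20. At ZT0 the highest Dbp array read 8.22. At ZT6 the highest Btg1 array read 7.37, the lowest Sorcs1 array 6.63 and the lowest Tmeff2 array 6.65. The pituitary hormone gene Gh read 5.20 in AKR/J ZT6 replicate 1.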

How the results depend on the processing

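Of 928 values of the 30 genes with the largest changes under alternative settings, 924 kept direction and call, 0 reversed, and 4 lost the call: Scd1 with only the 18 arrays (adjusted p = 0.0889), and Rprd2, Btg1 and Cntn2 when a gene's probe sets were averaged. The 1805 calls became 798 with only the 18 arrays, where fewer degrees of freedom remain, 1084 genes with averaged probe sets, and 516 with a minimum change of 0.25; other settings stayed within 1.5 times, among them 1945 with quantile normalization, which put 51% of calls higher against 56.5%. Same-number arrays deviated together in AKR/J (correlations of 0.20, 0.26 and 0.55, with -0.44 to 0.55 over all pairs), but not in C57BL/6J (-0.17 to 0.09) or DBA/2J (-0.09 to 0.09). The AKR/J pair at 0.55 was replicate 3 at ZT6 and at ZT0, both among the arrays that stood apart. With the replicate number as a block 1847 were called, 1050 higher and 797 lower. With a replicate block within each strain, chosen after seeing the data, 1876 were called, and 217 in AKR/J, and neither block moved a count of calls by over 1.5 times. That block took the strain-by-time call from Sdhaf4 (adjusted p = 0.0595). Of the list counts under alternatives, 2217 stayed within 1.5 times and 215 did not.

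With only the 18 arrays the counts were 69 in AKR/J, 45 in C57BL/6J, 154 in DBA/2J and 0 for strain by time. With only the 36 control arrays they were 147 in AKR/J and 97 in C57BL/6J. Only probe sets above the median level gave 295 in C57BL/6J, 29 for strain by time, 36 in sleep-deprived mice and 382 for the difference from them. Array weights gave 533, 57, 565 and 1307 for the same results. A block for the arrays that stood apart gave 304 in C57BL/6J, 924 in DBA/2J and 15 for strain by time. Without them there were 100 in AKR/J, 5 for strain by time, 10 in sleep-deprived mice and 44 for the difference. Strain by time gave 15 with quantile normalization and 30 with a trend and robust spread. Averaged probe sets gave 105 in C57BL/6J and 3103 for early light minus early dark, and the minimum change left 15 in sleep-deprived mice. The cause of these shifts was not tested.

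Leaving out each of the 18 compared arrays in turn gave 1474 to 2018 calls and 4 to 14 for strain by time. Within strains it gave 138 to 252 in AKR/J, 70 to 208 in C57BL/6J and 300 to 603 in DBA/2J. No array of sleep-deprived mice, of ZT12 or of ZT18 was left out in this way. The count in sleep-deprived mice, 18 to 28, could therefore move only through the shared spread. The difference from sleep-deprived mice gave 120 to 348 and early light minus early dark 5083 to 5612, each with only its undisturbed light side varied. Counts moved by over 1.5 times in AKR/J without its ZT6 replicates 1 (140) and 2 (138), in C57BL/6J without ZT0 replicates 1 (76) and 3 (90) or ZT6 replicates 2 (90) and 3 (70), and in DBA/2J without ZT0 replicates 2 (345) and 3 (345) or ZT6 replicates 1 (346), 2 (300) and 3 (355). The difference from sleep-deprived mice did so without AKR/J ZT0 replicates 2 (320) and 3 (128), AKR/J ZT6 replicates 2 (127) and 3 (348), and C57BL/6J ZT0 replicate 3 (120). Strain by time did so without AKR/J ZT0 replicate 3 (14), C57BL/6J ZT0 replicates 1 (4) and 2 (4), C57BL/6J ZT6 replicates 2 (5) and 3 (4), and DBA/2J ZT6 replicate 1 (5). With 3 arrays per strain and time, small changes within a strain may go undetected.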
